A study of Rattus norvegicus with 48 samples.

Results

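Oxidative phosphorylation is the last stage of aerobic ATP production, and the genes described here encode its 5 complexes in the inner mitochondrial membrane. They were chosen by gene symbol: NADH dehydrogenase (Ndufa, Ndufb, Ndufc, Ndufs, Ndufv), succinate dehydrogenase (Sdha to Sdhd), the cytochrome bc1 complex (Uqcr), cytochrome c oxidase (Cox4i, Cox5 to Cox8), ATP synthase (Atp5) and the protein-coding genes of the mitochondrial DNA. Of 32883 genes in the tables, 111 had such a name and 103 averaged 2 CPM (counts scaled to the size of the library) or more in retina or posterior eye. Of these, 90 are nuclear genes and 13 are mitochondrially encoded. Complex I had 34 nuclear and 7 mitochondrial members, complex II 4 nuclear ones, complex III 9 and 1, complex IV 18 and 3, and complex V 17 and 2. The name pattern also took in 8 Ndufaf genes, which encode assembly factors of complex I and no subunit. The 8 rows left out for low level were Cox7a1, Ndufs6, Ndufa1, Ndufv3, Ndufa10l1, Cox8c, Cox7b2 and Cox6c-ps1. Near the limit, Atp5pb was inside at 2.04 CPM in the retina, and Ndufv3 was outside at 1.89 CPM in the posterior eye. Ndufv3 and Ndufa10l1 each have another row that is a member (Ndufv3.1 and Ndufa10l1.1). Uqcrb in complex III and Cox6b1 in complex IV each have 2 rows that are both members (the others being Uqcrb.1 and Cox6b1.1). Counts of members are therefore counts of rows. The annotation behind the counts is not given. Whether low rows such as Cox7a1, Ndufa1, Ndufs6 and Atp5pb hold all reads of their genes is therefore not known. Of the 103 members, 99 reached 2 CPM in both tissues, Cox6a2, Cox8b and Cox6b2 in the posterior eye alone, and Atp5pb in the retina alone.

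The RNA came from 24 female Long-Evans rats, and each animal gave 1 retina library and 1 library of the posterior eye, as the tissue is labelled. Rats of 3 to 4 months (young) or 9 to 10 months (middle-aged per the submitters, called aged here) had either ovariectomy (OVX), which removes the ovaries and the oestrogen they make, or a sham operation that leaves the ovaries in place. This made 4 groups of 6 animals, sham and OVX at each age, all of 1 sex and strain. The design asks what loss of the ovaries does to each tissue at each age.

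Electrons from NADH enter the chain at complex I and those from succinate at complex II, pass through complex III to cytochrome c, and reach oxygen at complex IV. The protons pumped on the way drive complex V, which makes ATP. The mitochondrial DNA encodes the central membrane subunits of every complex except complex II, while the nuclear genome encodes all the others. Photoreceptors hold dense mitochondria in their inner segments, and the extraocular muscles that insert on the sclera are among the muscles richest in mitochondria. Several complex IV subunits exist as a form made in most tissues (Cox6a1, Cox8a) and a form of heart and skeletal muscle (Cox6a2, Cox8b).

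The promoters of both muscle forms are shown beside that of the general form Cox8a, since the 3 genes gave the main contrast between the tissues. Each runs from 250 bases before to 50 bases after the transcription start of the RefSeq model, 5′ to 3′ on the gene's strand, in build GRCr8. In Cox6a2 and Cox8b the capitals mark CAGCTG, a form of the E-box read by myogenic factors, and CTAAAAATA, a form of the site of the muscle factor MEF2. In Cox8a they mark CCGGAAG or its complement, the core bound by GABPA and other ETS factors. Both strands were searched, and the letters of these motifs did not overlap in the 3 sequences.
Cox6a2 (chr1:192219667-192219966, minus strand): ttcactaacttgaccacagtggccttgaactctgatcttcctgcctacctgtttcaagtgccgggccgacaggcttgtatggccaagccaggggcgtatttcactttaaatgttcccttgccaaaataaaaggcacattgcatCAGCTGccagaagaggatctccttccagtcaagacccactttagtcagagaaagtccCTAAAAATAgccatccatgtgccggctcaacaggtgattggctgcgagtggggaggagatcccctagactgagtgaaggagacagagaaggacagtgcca
Cox8b (chr1:205408224-205408523, minus strand): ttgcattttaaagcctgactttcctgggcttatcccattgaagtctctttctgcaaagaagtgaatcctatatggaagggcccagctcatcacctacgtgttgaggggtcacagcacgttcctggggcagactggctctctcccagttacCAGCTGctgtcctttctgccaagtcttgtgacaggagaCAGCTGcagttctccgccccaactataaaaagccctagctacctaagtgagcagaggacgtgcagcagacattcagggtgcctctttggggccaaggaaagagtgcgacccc
Cox8a (chr1:213833574-213833873, minus strand): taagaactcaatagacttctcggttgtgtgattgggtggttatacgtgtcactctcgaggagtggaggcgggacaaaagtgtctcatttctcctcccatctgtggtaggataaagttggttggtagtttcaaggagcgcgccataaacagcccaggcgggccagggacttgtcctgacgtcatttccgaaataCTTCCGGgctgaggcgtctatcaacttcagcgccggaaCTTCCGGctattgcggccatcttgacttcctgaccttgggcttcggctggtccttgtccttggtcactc
Cox6a2 held 1 MEF2 match and 1 CAGCTG, Cox8b held 2 CAGCTG and no MEF2 match, and Cox8a held 2 ETS matches and neither of the others. In all, 76 of the 90 nuclear members had a promoter in the RefSeq table, 1 of them under its current symbol (Atp5mk for Atp5md). The ETS letters were in 22 of these 76 promoters (28.9%), against 9.22% of all 27457 promoters of the table, and the NRF1 letters GCGCATGCG were in 8 (10.5%), against 1.66%. NRF1 and GABPA are known regulators of nuclear respiratory genes. CAGCTG was in 14.5% of member promoters and 15.1% of all, and CTAAAAATA was in 1 member promoter, that of Cox6a2, against 0.517% of all. These are matches of letters, and no binding was measured.

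Depth was 12916146 to 30737547 counts per library in the retina and 11470945 to 22971367 in the posterior eye. The posterior eye libraries held the tissues that their label implies and others: all 15 skeletal muscle markers in the table, 10 of 11 pigment epithelium markers and 7 of 9 fibroblast markers averaged 2 CPM or more. The skeletal muscle level, the mean log2 CPM of those 15 genes, ran from 8.85 to 11.1 there, and the rod level, taken the same way from 12 rod genes, from 1.73 to 9.94. Retina libraries had a rod level of 11.2 to 11.5. On average 10 of 15 muscle, 10 of 11 pigment epithelium and 4 of 9 fibroblast markers also reached 2 CPM in the retina. That limit alone therefore does not tell the tissues apart. All 10 lens markers reached it in both tissues, and their mean log2 CPM ran from 5.66 to 10.2 in retina and from 1.47 to 6.48 in posterior eye. In 22 retina libraries the muscle level lay between -0.50 and 0.18, but it was 4.90 in young sham animal 2 and 2.31 in young OVX animal 8, so results on muscle genes in the retina are given with and without those libraries. In bulk tissue, fewer cells of a type and less RNA per cell cannot be told apart.

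Most oxidative phosphorylation genes stood higher in the posterior eye than in the retina. In a model over all 48 libraries (edgeR quasi-likelihood test, Benjamini-Hochberg adjustment over 17153 genes, a gene being called at an adjusted p under 0.05), 92 of 103 members were called higher and 7 lower. Of all genes tested 47.8% were called higher and 45.2% lower, so a call in itself is common in this comparison. The median log2 difference of the members was 0.94, with 0.87 for nuclear and 1.27 for mitochondrially encoded members, beside 0.05 over all genes. Every member of complexes I, II and III and all 13 mitochondrially encoded members were called higher. In 66 members every posterior eye library lay above every retina library, and in 2 (Cox4i2 and Ndufaf5) below. The share of all genes separated in this way was not computed, so these 2 counts have no baseline. The size of the difference depended on the scaling: with library totals in place of TMM scaling, the median of all genes moved to -0.09 and that of the members to 0.80, with 92 called higher and 11 lower.

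**Figure D1:**
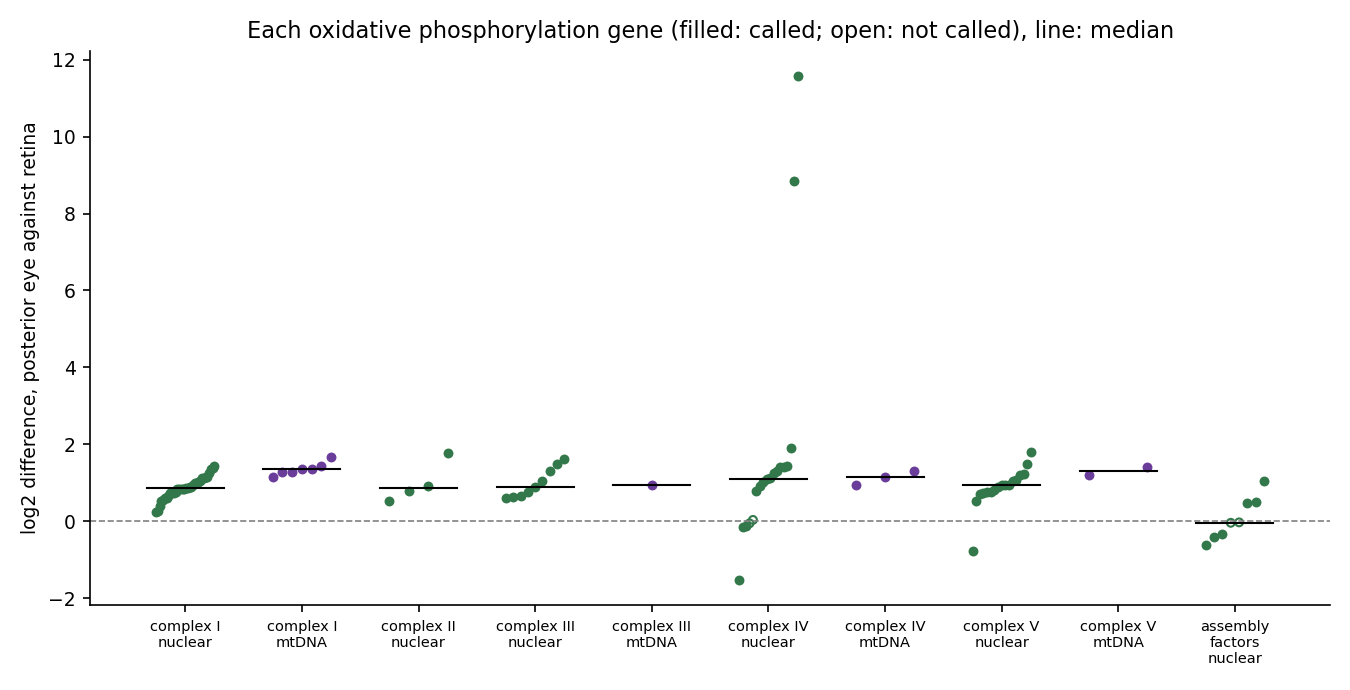
Log2 difference between posterior eye and retina for each of the 103 members (y axis), by complex and genome of origin (x axis), filled where called at an adjusted p under 0.05 and open where not, with a line at each median. Cox6a2 and Cox8b stand far above the rest at 11.58 and 8.86, the other complex IV points reach down to -1.53 for Cox4i2, and the assembly factors lie on both sides of 0.

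Complex II is the only complex made wholly from nuclear genes, and its 4 subunits did not differ by the same amount. Sdhd, a membrane anchor, had 82.1 to 101 CPM over the retina libraries and 200 to 401 CPM over the posterior eye libraries on the common scale, a log2 difference of 1.78 ± 0.06 (SE) with no overlap of the tissues. Sdha, the flavoprotein that oxidises succinate, had a median of 403 CPM in retina and 564 CPM in posterior eye, and differed by 0.52 ± 0.05. Sdhb, the iron-sulphur subunit, differed by 0.91 ± 0.06 and Sdhc, the other anchor, by 0.80 ± 0.05. All 4 were called, and Sdhb, Sdhc and Sdhd were higher in the posterior eye of all 24 animals, Sdha in 23.

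The mitochondrially encoded members differed by 0.94 to 1.68 on the log2 scale. The smallest difference was that of Mt-cyb, the cytochrome b of complex III (0.94 ± 0.07), followed by Mt-co1, the catalytic subunit of complex IV (0.95 ± 0.07), which had a median of 4447 CPM in retina and 8349 CPM in posterior eye. Mt-nd3, a membrane subunit of complex I, had the largest (1.68 ± 0.08), with medians of 15.0 CPM in retina and 47.8 CPM in posterior eye and no overlap. Among the others, Mt-co2 differed by 1.15, Mt-nd5 by 1.16, Mt-atp6 by 1.203, Mt-nd1 and Mt-nd4 by 1.27, Mt-co3 by 1.30, Mt-nd6 by 1.36, Mt-nd2 by 1.37, Mt-atp8 by 1.41 and Mt-nd4l by 1.44. Reads of Mt-nd4l and Mt-nd4, and of Mt-atp8 and Mt-atp6, can be hard to assign because these genes overlap. All 13 were higher in the posterior eye of all 24 animals.

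Complex IV gave the widest spread, and its isoform genes fell into different classes. Cox6a2, the muscle form of subunit 6a, had no counts in 4 retina libraries and at most 5 counts in 22 of the 24, but 352 to 1397 CPM over the posterior eye libraries. The fitted log2 difference was 11.58 ± 0.53, and 13.29 ± 0.26 without the retina libraries of animals 2 and 8. These 2 retina libraries, the ones with muscle marker counts, held 313 and 32 counts of Cox6a2 (13.7 and 1.64 CPM). Cox8b, the muscle form of subunit 8, had a median of 0.55 CPM in retina and 318 CPM in posterior eye, a difference of 8.86 ± 0.25 (9.22 ± 0.19 without those libraries). Young sham animal 2 again had the highest retina value, 106 counts or 4.63 CPM, while the 22 other libraries had 2 to 21 counts. Of the muscle markers themselves, all 15 were called higher in the posterior eye.

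**Figure D2:**
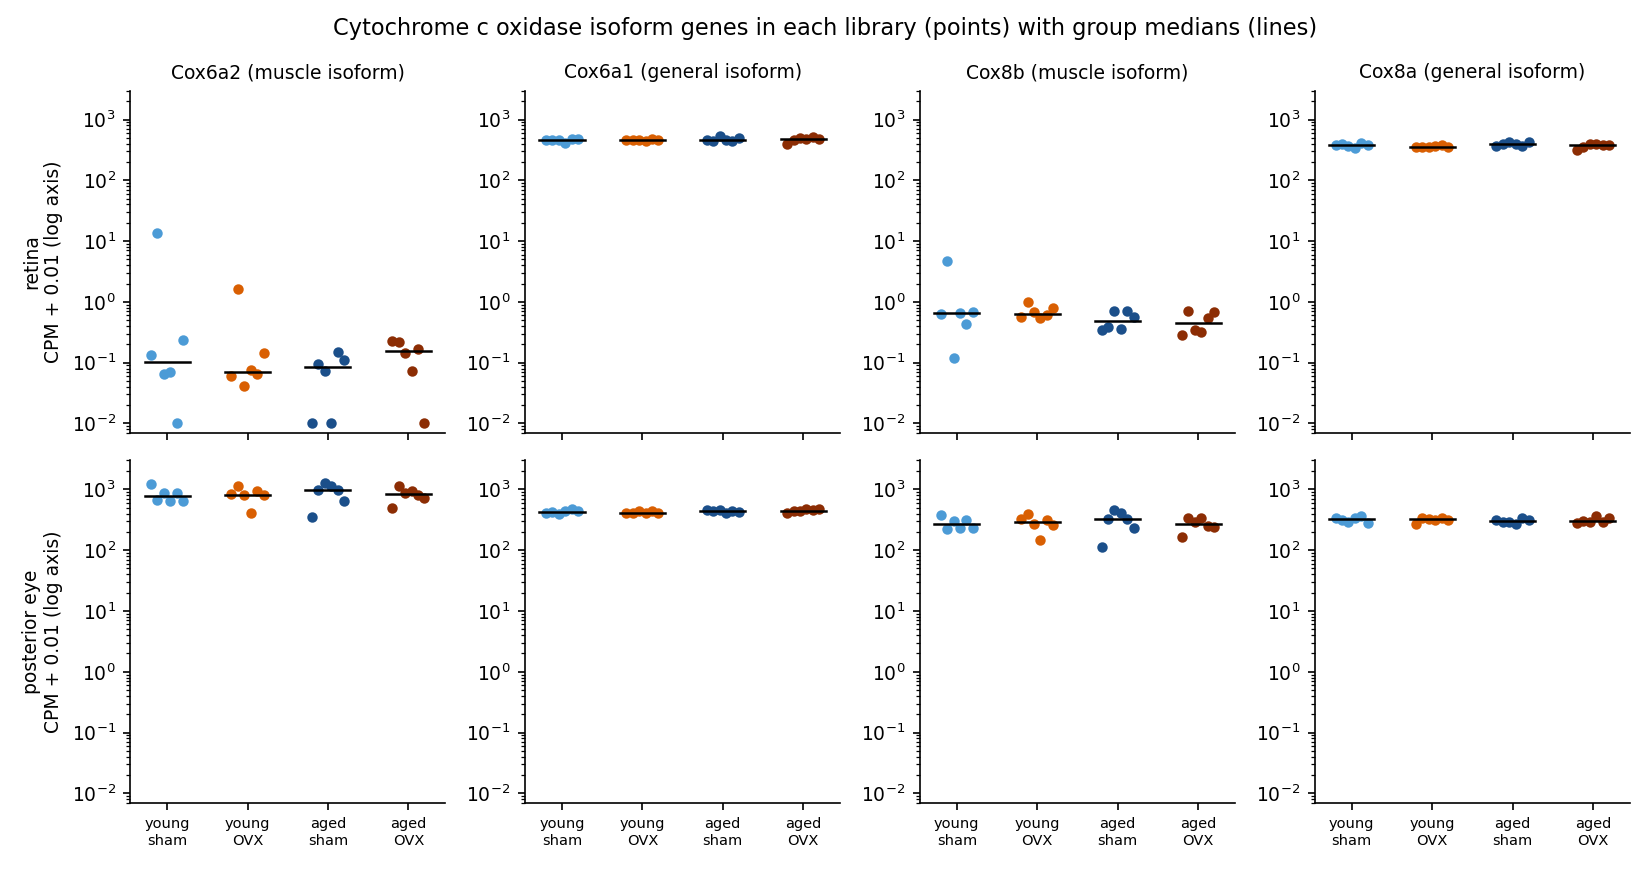
CPM (log axis, with 0.01 added so that libraries with no count can be drawn) of 2 muscle-form and 2 general-form cytochrome c oxidase genes in each retina library (top row) and posterior eye library (bottom row), by group, with lines at group medians. Cox6a2 and Cox8b are low in retina, with the highest values in young sham animal 2 (13.7 and 4.63 CPM) and Cox6a2 raised in young OVX animal 8 as well (1.64 CPM). Both stand above 100 CPM in every posterior eye library, while Cox6a1 and Cox8a lie at nearly the same height in both tissues and all groups on this axis.

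Cox6a1 and Cox8a, the general counterparts of these 2 muscle forms, differed little between the tissues, unlike other general forms of complex IV. Cox6a1 had a median of 443 CPM in retina and 455 CPM in posterior eye, was not called (0.04 ± 0.03), and took the opposite sign, -0.10, with library totals in place of TMM scaling and -0.02 with the mitochondrially encoded genes left out. Cox8a was slightly lower in the posterior eye (-0.13 ± 0.03, called), with medians of 361 and 323 CPM. Ndufa4, now counted as a subunit of complex IV, was not called (-0.05 ± 0.05), but was called lower under either of those scalings (-0.19 and -0.11). Cox7a2, whose muscle counterpart Cox7a1 fell below the level limit, was higher in the posterior eye (1.03 ± 0.06), and so were Cox4i1 (0.91 ± 0.05) and Cox6b1 (1.248 ± 0.049). The other Cox6b1 row, Cox6b1.1, differed by 1.296 ± 0.053. Cox7a2l, which joins complexes III and IV into supercomplexes, was lower (-0.14 ± 0.03).

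Cox4i2 was 1 of 3 complex IV members called lower in the posterior eye, beside Cox8a and Cox7a2l, and had the largest of these differences. This second form of subunit 4, known from lung and from oxygen-sensing cells, had 53.03 to 76.8 CPM over the retina libraries and 14.1 to 33.4 CPM over the posterior eye libraries. The groups of libraries did not overlap, Cox4i2 was lower in the posterior eye of all 24 animals, and the log2 difference was -1.53 ± 0.09. Ndufa4l2, the hypoxia-responsive relative of Ndufa4, was higher in the posterior eye (1.12 ± 0.15), with medians of 12.0 and 4.59 CPM. Cox6b2, known as the testis form of subunit 6b, was low in both (medians of 5.71 and 1.46 CPM) and higher in the posterior eye by 1.91 ± 0.14.

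In complex V, Atp5f1e, the smallest subunit of the catalytic head, had the largest difference (1.79 ± 0.08, medians of 275 and 79.7 CPM). The 2 tissues did not overlap for Atp5f1e. Atp5if1, the inhibitor that stops the enzyme from running backwards, was higher by 0.95 ± 0.05. Atp5pb, a subunit of the peripheral stalk, was the only complex V member called lower (-0.78 ± 0.12), but its counts were few (medians of 1.11 and 1.91 CPM).

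All 41 subunit genes of complex I were called higher, with a median of 0.88, whereas the 8 Ndufaf genes had a median of -0.03, with 3 called higher and 3 lower. Ndufaf5 (-0.61 ± 0.04), Ndufaf7 (-0.41 ± 0.03) and Ndufaf4 (-0.32 ± 0.04) were lower in the posterior eye, the first 2 in all 24 animals. The 3 called higher, named after their values were seen, were Ndufaf6 (1.04 ± 0.06), Ndufaf8 (0.49 ± 0.05) and Ndufaf1 (0.48 ± 0.07), and Ndufaf2 and Ndufaf3 were not called. Among 41 tested assembly factors of all complexes outside the name pattern, 23 were called higher and 12 lower (median 0.22). Of 25 genes that express the mitochondrial DNA, 13 were called higher and 12 lower. Of 20 known regulators of mitochondrial biogenesis, 5 were called higher and 11 lower (median -0.49). Mobile electron carriers and the enzymes that make or feed them gave 13 higher and 5 lower of 18, and carriers and uncoupling proteins 7 higher and 4 lower of 12. Since 47.8% of all genes were called higher and 45.2% lower, these counts by themselves do not set the assembly factors or the lists apart from other genes.

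Within the posterior eye, the levels of most members followed the skeletal muscle marker level. In a fit with a term for the muscle level and one for the rod level beside the 4 groups, chosen after the data had been seen, 90 of 103 members had a called positive slope on the muscle level and none a negative one. Of all genes tested 7.41% had a called positive slope and 0.994% a called negative one. The members' median slope was 0.37 log2 units per log2 unit of muscle level, against -0.03 over all genes, and all 13 mitochondrially encoded members, all 41 of complex I, all 4 of complex II and all 10 of complex III were among those called. Because the level was taken from the same libraries, the muscle markers had a median slope of 0.97 in the same fit. Cox6a2 (0.88 ± 0.05) and Cox8b (0.88 ± 0.06) came nearest to that value. Cox6a1 (-0.01 ± 0.04), Cox8a (0.08 ± 0.05), Cox4i2 (0.04 ± 0.11), Atp5if1 (-0.07 ± 0.07) and Ndufa4l2 (0.15 ± 0.19) were among the 13 not called, as were 5 of the 8 assembly factors. The part of muscle RNA in the difference between the tissues was not tested. Over the 24 animals, 82 to 98 of the 103 members were higher in the posterior eye than in the retina of the same animal, with medians of 0.36 to 1.19, and no posterior eye library was free of muscle RNA (lowest muscle level 8.85).

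**Figure D3:**
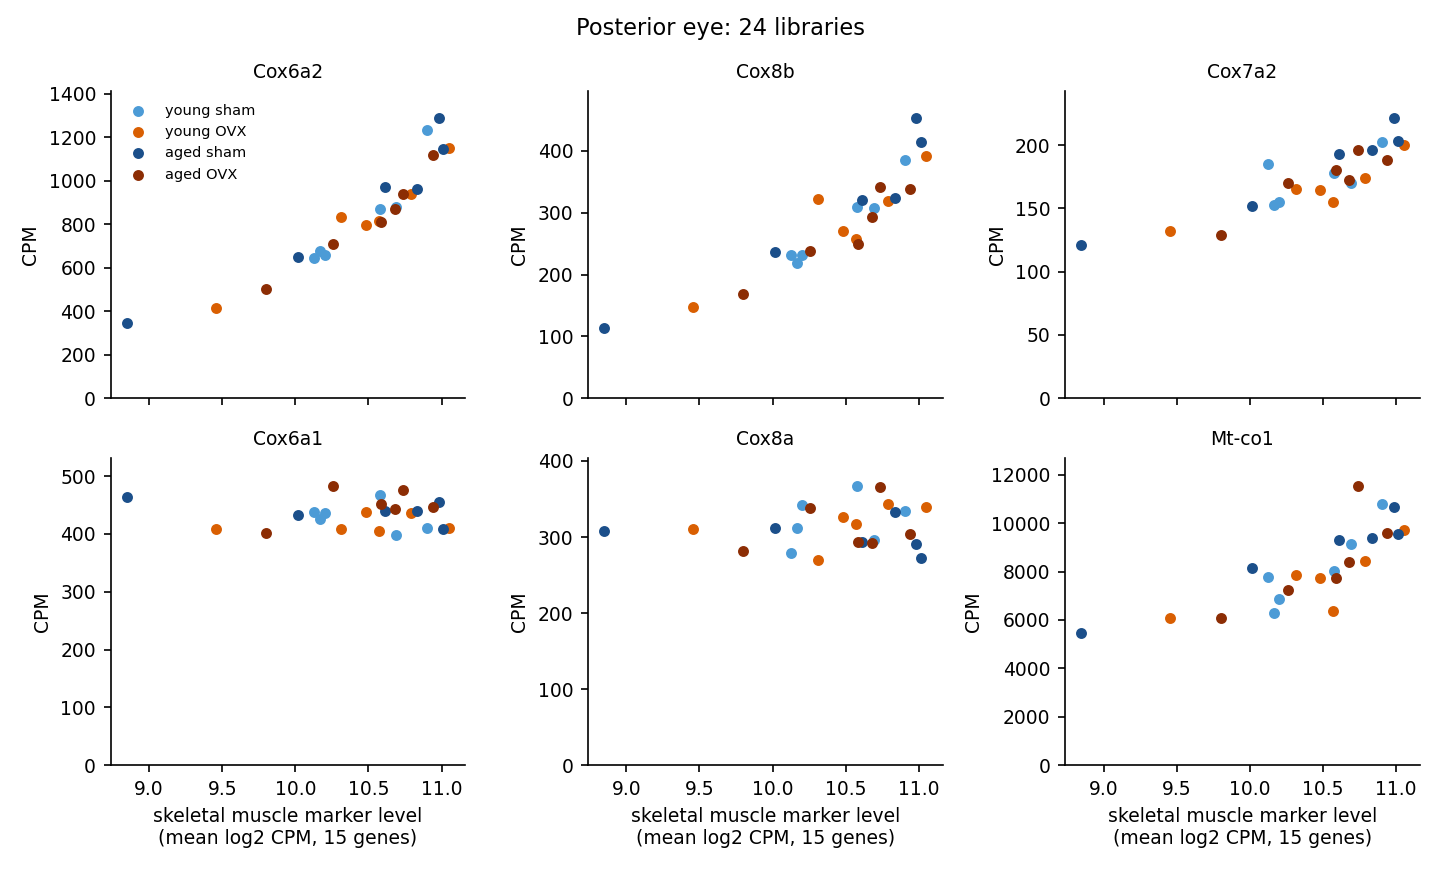
CPM (y axis, from 0) of 6 members in the 24 posterior eye libraries against the skeletal muscle marker level of the same library (x axis, mean log2 CPM of 15 genes), coloured by group. Cox6a2 and Cox8b climb steadily with the muscle level, Cox7a2 and Mt-co1 climb from a higher floor, and Cox6a1 and Cox8a stay level, with the 4 groups mixed in every panel.

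Relations of single isoform genes to marker levels were computed over the 24 libraries of a tissue, 8 of them for posterior eye and 2 for retina (permutation p from 100000 resamples, two-sided, adjusted over the 10). Against the muscle level in the posterior eye, Pearson's r was 0.975 for Cox6a2 (Spearman's rho 0.966), 0.956 for Cox8b (0.933) and 0.891 for Cox7a2 (0.872), each with a permutation p of 1e-05, the smallest these resamples can give, and an adjusted p of 3.33e-05. Without the 2 libraries farthest from the median muscle level, r was 0.959, 0.91 and 0.832. For Cox6a1 r was -0.052 (rho 0.068, permutation p = 0.813, adjusted 0.904) and for Cox8a 0.135 (rho 0.104, permutation p = 0.535, adjusted 0.668). Cox7a1, under the level limit, had an r of -0.010 (rho 0.119, permutation p = 0.963). On library totals without TMM scaling the r of Cox6a1 was -0.527 (adjusted permutation p = 0.0192).

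Mural cells, the pericytes and smooth muscle of small vessels, are known for high Ndufa4l2. In the posterior eye Ndufa4l2 had an r of 0.564 with the mural cell level (rho 0.556, permutation p = 0.004, adjusted 0.01) and of 0.532 without the 2 farthest libraries. In the retina its r was 0.226 (rho 0.296, permutation p = 0.284, adjusted 0.474). Cox4i2 had an r of -0.314 in retina (rho -0.237, permutation p = 0.134, adjusted 0.268) and -0.143 in posterior eye (rho -0.116, permutation p = 0.503, adjusted 0.668).

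The rod level was followed by few members. Of 103, 5 had a called positive slope on it and 1 a negative one, where 22.3% of all genes had a called positive and 12.8% a called negative slope. The largest was that of Cox4i2 (0.15 ± 0.03 log2 units per log2 unit). The other positive ones were Ndufaf5 (0.05), Ndufaf3 and Ndufaf4 (0.04 each) and Cox8a (0.03), and the negative one was Atp5if1 (-0.04). Cox4i2, Ndufaf5, Ndufaf4 and Cox8a were also among the 7 members called lower in the posterior eye than in the retina, and Ndufaf3 was not called there. The share of all genes with both calls is not given, so this overlap does not set the members apart from other genes. The count of called rod slopes fell to 3 without the muscle term and lay between 2 and 6 when 1 library was left out. The lowest counts came without young sham animals 1 (3 members) and 2 (2 members) or young OVX animal 11 (3 members).

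Against this spread between tissues and libraries, the effects of ovariectomy were small. In the retina, 102 of the 103 members were tested (Cox6a2 was not), and none was called for OVX against sham in young animals, in aged animals or on average over both ages. Over all 15481 genes 0.0194%, 0.00646% and 0.0517% were called in those comparisons, so few calls were made anywhere. An unadjusted p under 0.05 was reached by 5, 7 and 10 members. The share of all genes under that limit is not given here or below, so such counts do not set the members apart from other genes. The medians of the members were 0.02 in young and -0.04 in aged animals, where 77 of 102 were lower after OVX and 25 higher, beside medians of -0.0007 and -0.0005 over all genes. In young animals 62 were higher and 40 lower. The standard error had a median of 0.06 over the members, and for 96 of 102 members the 95% interval of the change lay within 0.5 log2 units of 0 at each age.

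**Figure D4:**
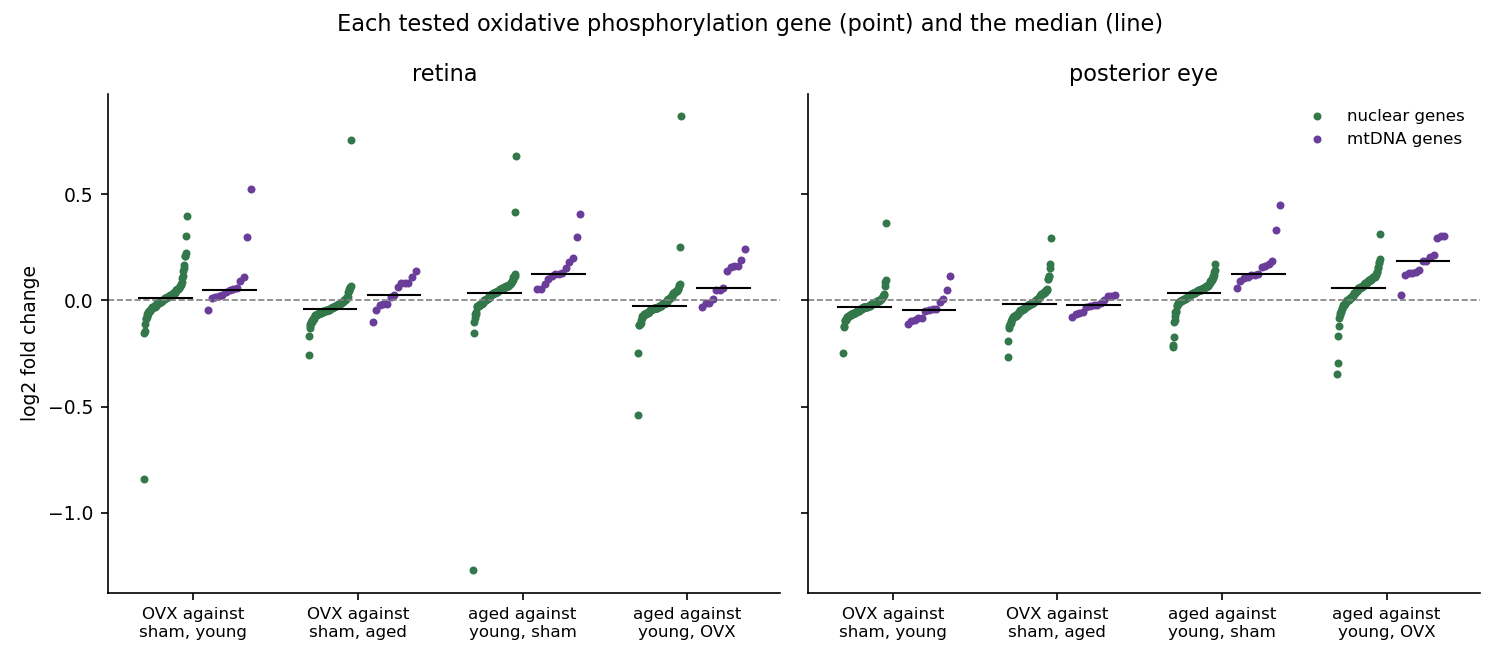
Log2 fold change of each tested member (points, sorted within a column) for OVX against sham and aged against young in retina (left) and posterior eye (right), nuclear genes in green and mitochondrially encoded genes in purple, with lines at the medians. Most points lie within 0.25 of 0, no member was called, and the purple points of aged against young sham animals all lie above 0 in both tissues.

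Uqcrb, Sdha and Ndufb6 were among the members with the smallest p for OVX in the retina. Uqcrb, a small subunit of complex III for which the table has 2 rows that may share reads, had 43.1 to 46.1 CPM (median 43.8) in young sham and 37.2 to 42.5 CPM (median 39.9) in young OVX animals. These groups did not overlap, and the log2 change was -0.14 ± 0.04 (edgeR adjusted p = 0.204). The other row, Uqcrb.1, had more counts, with a median of 109 CPM over all retina libraries against 41.6 CPM for Uqcrb. Its young sham and young OVX groups overlapped, so the separation was seen in the smaller row alone. Sdha had medians of 433 CPM in young sham, 418 in young OVX, 437 in aged sham and 413 in aged OVX animals. The aged groups just failed to touch (424.6 as the lowest sham and 423.3 as the highest OVX value), and the mean change over both ages was -0.07 ± 0.02 (edgeR adjusted p = 0.208). DESeq2 called this change (-0.07 ± 0.02, adjusted p = 0.0389), the single member call by any tool in these comparisons. Ndufb6, an accessory subunit of complex I, changed by -0.17 ± 0.05 in aged animals (adjusted p = 0.584), with medians of 62.4 CPM after sham and 55.8 CPM after OVX, and the 6 values of each group overlapped. In young animals Ndufa12, an accessory subunit of complex I, followed Uqcrb by p (0.21 ± 0.08, adjusted p = 0.340), and over both ages Uqcrc2, a core protein of complex III, followed Sdha and Uqcrb (-0.06, adjusted p = 0.325). Groups that did not overlap were found for 2 members in young (Uqcrb and Ndufs5) and 1 in aged animals (Sdha). The share of all genes with such groups was not computed, so these counts do not set the members apart from other genes.

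The change of Ndufa4l2 in the aged retina was larger but less certain. Ndufa4l2 had 2.98 to 8.88 CPM (median 5.01) in aged sham and 4.21 to 20.7 CPM (median 7.29) in aged OVX animals, a log2 change of 0.76 ± 0.29 (adjusted p = 0.724). The highest value came from aged OVX animal 23, whose retina also had the highest mitochondrial share of counts (1.92%), and over the fits that left out 1 library each the change lay between 0.34 and 0.98. The pigment epithelium level, the mean log2 CPM of that marker list, also differed between retina groups, with medians of 3.26 in young sham, 3.90 in young OVX, 3.57 in aged sham and 3.01 in aged OVX animals, a level that moved up after OVX in young and down in aged animals. With that level as a covariate no member was called and Ndufa4l2 changed by 0.43. All 10 lens markers had higher values after OVX in the aged retina (median 1.053, none called), and their part in the changes of the members was not tested.

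All 103 members were tested in the posterior eye and none was called for OVX against sham in young animals (0.0061% of 16401 genes called), in aged animals (0%) or over both ages (0%). An unadjusted p under 0.05 was reached by 0, 0 and 1 member, the last being Ndufaf1, and no member was called by DESeq2 or limma-voom either. The median change was -0.03 in young animals, with 85 of 103 members lower, and -0.02 in aged ones, with 67 lower. The median and the split over all genes are not given for these comparisons. Most members followed the muscle level and are not independent of each other. The counts of lower members therefore do not set them apart from other genes. Standard errors were larger than in the retina (median 0.13), and the 95% interval lay within 0.5 of 0 for 94 members in young and 96 in aged animals. Cox6a2 showed how wide the groups were, with 647 to 1234 CPM (median 773) in young sham, 416 to 1153 (median 825) in young OVX, 346 to 1287 (median 966) in aged sham and 500 to 1121 (median 841) in aged OVX animals. The 4 groups overlapped over most of their range, as did their muscle levels, with medians of 10.4, 10.5, 10.7 and 10.6.

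Whether OVX acted differently at the 2 ages or in the 2 tissues was tested as such. The interaction of OVX and age called no member in the retina (0.0452% of genes called, 1 member at an unadjusted p under 0.05) or in the posterior eye (0% of genes, 0 members). The smallest p in the retina was that of Ndufb6 (-0.22 ± 0.07, adjusted p = 0.613). The OVX effect in the posterior eye minus that in the retina, averaged over ages, was called for no member, with 0.00583% of 17153 genes called and 0 members at an unadjusted p under 0.05. Its 95% interval lay within 0.5 of 0 for 96 of 103 members.

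No mitochondrially encoded member was called for age, although most had higher values in aged animals. In sham animals all 13 were higher in aged than in young rats, by a median of 0.13 in the retina and 0.12 in the posterior eye, beside -0.0007 and -0.02 over all genes. None was called, where 0.0388% of genes were called in the retina and 0% in the posterior eye. In OVX animals 10 of 13 were higher in the aged retina (median 0.06) and 13 of 13 in the aged posterior eye (median 0.18), again with no call and with 0.0711% and 0% of genes called. The lens level, the mean log2 CPM of 10 lens marker genes, moved between the same groups: its median in the retina was 9.66 in young sham, 9.31 in young OVX, 7.05 in aged sham and 8.96 in aged OVX animals, and in the posterior eye 3.72, 4.24, 2.73 and 3.04. All 10 lens genes had lower values in aged than in young sham animals in both tissues, none of them called, and the part of lens RNA in the values of the members was not tested. These 13 genes come from 1 small genome, transcribed as long precursors, and are not independent of each other.

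The values of single mitochondrial genes show the overlap. Mt-nd1, a core membrane subunit of complex I, had 925 to 1037 CPM (median 957) in the retina of young sham, 933 to 1052 (median 979) of young OVX, 891 to 1171 (median 1093) of aged sham and 1004 to 1337 (median 1077) of aged OVX animals. In OVX animals it was 0.19 ± 0.07 higher with age (adjusted p = 0.329), and Mt-nd4, another core subunit, 0.24 ± 0.08 (adjusted p = 0.325). Mt-atp8, a small subunit of the ATP synthase membrane part, had medians of 16.9 CPM in young sham and 23.2 CPM in young OVX retinas, a change of 0.52 ± 0.22 (adjusted p = 0.369). Mt-atp8 in the posterior eye was 0.45 ± 0.19 higher in aged than in young sham animals (adjusted p = 1), with medians of 59.9 and 41.1 CPM. All groups overlapped for these genes.

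**Figure D5:**
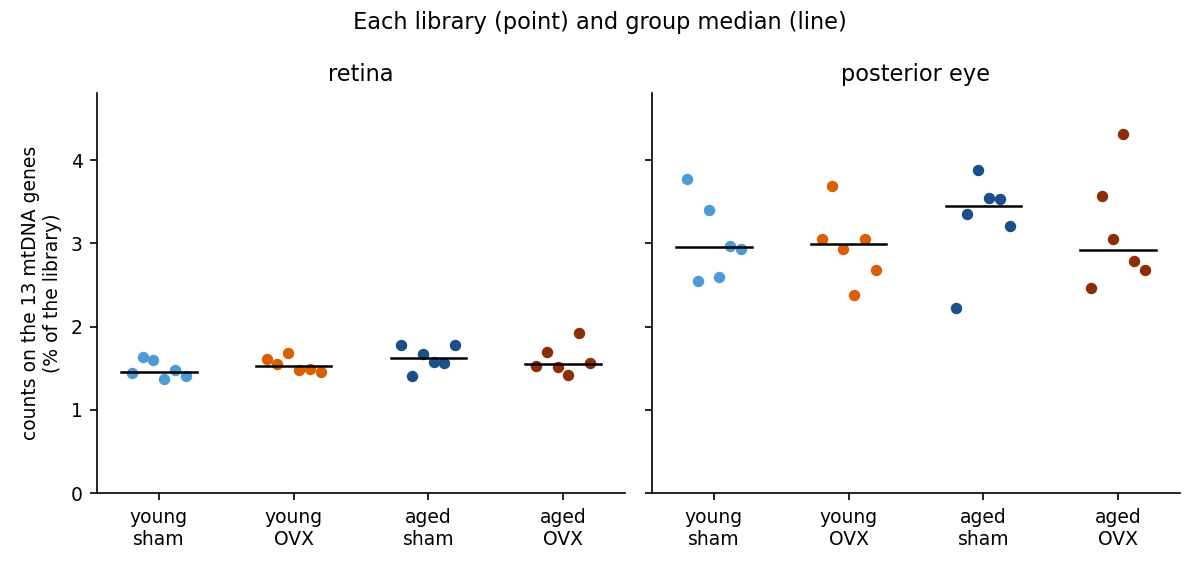
Share of each library's counts that fell on the 13 mitochondrially encoded genes (y axis, percent, from 0) by group in retina (left) and posterior eye (right), with lines at group medians. Every posterior eye library (2.22% to 4.31%) lies above every retina library (1.38% to 1.92%), and the groups overlap within each tissue.

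Summed over the 13 genes, the mitochondrial share of the counts was 1.49% ± 0.10 (SD, n = 6) in young sham, 1.55% ± 0.09 in young OVX, 1.63% ± 0.14 in aged sham and 1.61% ± 0.18 in aged OVX retinas. The posterior eye values were 3.04% ± 0.47, 2.97% ± 0.44, 3.29% ± 0.57 and 3.15% ± 0.68 in the same order. The nuclear members took 1.28% to 1.57% of the counts of a retina library and 1.71% to 2.86% of those of a posterior eye library. Within each tissue the 4 groups overlapped in both shares. The mean level of the nuclear members of complex I, in log2 CPM, was 6.68 ± 0.05, 6.71 ± 0.01, 6.71 ± 0.09 and 6.68 ± 0.11 in the 4 retina groups. These group means lay a few hundredths apart, while single retina libraries ran from 6.50 to 6.86.

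Nuclear members with age in sham animals gave no call either. In the retina 65 of 89 were higher and 24 lower in aged rats (median 0.04), and in the posterior eye 70 of 90 were higher and 20 lower (median 0.03). The split over all genes is not given for these comparisons, so these counts do not set the members apart from other genes. Cox4i1 had the smallest p in the retina (0.13 ± 0.05, adjusted p = 0.357), with medians of 189 CPM in young and 201 CPM in aged sham animals. The change of Cox8b (-1.27 ± 0.53, adjusted p = 0.383) rested on young sham animal 2 and was 0.03 without it. Cox6b2 changed by 0.68 ± 0.31 (adjusted p = 0.424) at medians of 1.12 and 2.13 CPM. In the posterior eye Atp5if1 was 0.31 ± 0.11 higher in aged than in young OVX animals (adjusted p = 0.335), with medians of 272 and 210 CPM.

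Of the genes around the pathway, 2 were called within a tissue, both in the retina. Tfeb, a transcription factor of lysosome and mitochondrial upkeep, was 0.42 ± 0.07 higher after OVX in young animals (edgeR adjusted p = 0.0322), with 9.87 to 12.3 CPM (median 11.4) in sham and 12.9 to 16.1 CPM (median 15.2) in OVX animals and no overlap. Its mean change over both ages was 0.29 ± 0.05 (adjusted p = 0.0348). Coq10b, a coenzyme Q binding protein, was 0.41 ± 0.07 higher in the same comparison (adjusted p = 0.0322), with medians of 26.2 CPM after sham and 35.8 CPM after OVX. It was also lower in aged than in young OVX retinas (-0.36 ± 0.07, adjusted p = 0.0488). They were 1 of 20 tested regulators and 1 of 17 tested electron carrier genes, and none of the 41 assembly factors, 25 genes of mitochondrial DNA expression or 10 carriers and uncoupling proteins tested was called in the retina. Of all genes 0.0194% were called for OVX in young retinas, 0.0517% over both ages and 0.0711% for age in OVX retinas. The lists were written with earlier results of these data known, so the calls of Tfeb and Coq10b are no independent finding. The pigment epithelium level of the retina was higher after OVX in young animals too, and its part in these changes was not tested. In the posterior eye no gene of these 5 lists was called for surgery or age.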

How the data were processed

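RNA was sequenced from retina and posterior eye of 24 rats, with 4 groups of 6 animals per tissue, and groups and animals were read from the sample labels. The authors deposited 1 table of raw read counts per gene and tissue. Per the labels' protocols, full-length cDNA was made from little total RNA with SMART-Seq and cut with Nextera XT, which marks no strand, so reads of overlapping genes can mix. Per the submitters' processing notes, STAR 2.7.3a, HTSeq, DESeq2 and the build Rnor_6.0 were used, without settings, and the annotation is not given in the sources used here. Promoters come from RefSeq tables of build GRCr8 and carry no measurement.

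Counts were tested with edgeR 4.0.16 (R 4.3.3): TMM scaling, filterByExpr, 1 mean per group over the 24 libraries of a tissue or the 48 of both, and the quasi-likelihood F test, which left 15481 genes in retina, 16401 in posterior eye and 17153 in both. P-values were two-sided, with Benjamini-Hochberg adjustment over every gene in a fit. Standard errors were derived from the log2 change and the square root of the F statistic. CPM are relative to TMM-scaled totals, within a tissue or, in comparisons of tissues, over both; the level limit used unscaled totals. Marker levels are means of log2 CPM with a prior count of 1. In the posterior eye, 25 gene names had turned into dates and were left out of the fit over both tissues. The biological coefficient of variation was 12% in retina and 33.4% in posterior eye.

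Alternatives were DESeq2 1.42.0, limma-voom (limma 3.58.1), no filter on low counts, unscaled totals, totals without mitochondrially encoded genes, only the groups compared, marker levels as covariates, the animal as a block and leaving out each library. Retina and posterior eye samples with the same number come from the same animal per the labels; the correlation of their deviations from the group means had a median of 0.059 and exceeded 0.1 in 6 of 24 animals. Scripts were tested on simulated data. Relations used Python with scipy 1.17.1. Genes were named by a rule: up to 3 members with the smallest p per comparison within a tissue, the 5 largest differences between tissues in each direction, all mitochondrially encoded members, complex II, the isoform genes and called genes of the pathway lists. The members, lists and rules were chosen with earlier results of these data known.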

Additional observations from a re-analysis of the deposited data

Results flagged for a closer look

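Of 224 sets of 6 libraries checked, 9 had 1 library far from its group, where chance alone marks about 1 in 20. The retina of young sham animal 2 had 13.68 CPM of Cox6a2, against 0 to 0.224 CPM in the others of its group, and 4.633 CPM of Cox8b, against 0.11 to 0.671 CPM. In the retina of young OVX animal 8 Cox6a2 was 1.638 CPM, against 0.032 to 0.132 CPM. These are the 2 retina libraries with a raised skeletal muscle marker level (4.90 and 2.31). In the retina of young sham animal 4 Cox6a1 was 413.7 CPM, against 458.6 to 480.6 CPM, and Mt-co1 was 4170 CPM, against 4577 to 4820 CPM. Cox4i2 was 80.36 CPM in the retina of young sham animal 5, against 60.09 to 63.74 CPM. Sdhb was 214.9 CPM in the retina of aged sham animal 15, against 192.8 to 199.5 CPM. Ndufa4l2 was 20.71 CPM in the retina of aged OVX animal 23, against 4.206 to 9.854 CPM. In the posterior eye of aged OVX animal 19 Cox6b1 was 165.5 CPM, against 218.7 to 248.0 CPM.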

How the results depend on the processing

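No member was called for surgery, age or their interaction within a tissue under any alternative run, leaving out each library included (0 in every fit), except that DESeq2 called 1 (Sdha) for the mean OVX change in the retina. With the animal as a replicate block, 99 members were called between tissues and 0 for the difference in OVX effect, as without the block. Between tissues 99 were also called by DESeq2, without a filter on low counts and without the retina libraries of animals 2 and 8, 103 on library totals, and 88 of 90 without mitochondrially encoded genes. The count of muscle slopes lay between 86 and 91 with 1 library left out. That of rod slopes lay between 2 and 6 (2 without young sham animal 2, 3 without young sham animal 1 or young OVX animal 11) and was 3 without the muscle term. The slope fits and the fit without 2 retina libraries were chosen after seeing the data.

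Some of the values followed singly changed sign or crossed the threshold, none of them a called value in the report. Of the called rod slopes only that of Cox4i2 was followed singly, and the lower counts above mean that others lost their call. Tfeb and Coq10b were not followed under the alternatives. The age change of Cox8b in sham retina, -1.27 with all libraries, was 0.027 without young sham animal 2 and between -1.501 and 0.027 over all fits with 1 library left out. Cox6a1 differed between tissues by -0.097 on library totals and -0.018 without mitochondrially encoded genes, and its muscle slope was 0.006, 0.030 and 0.004 without young sham animal 4, aged sham animal 13 and aged sham animal 18, in a range of -0.031 to 0.030. Without the 2 farthest libraries r was 0.0309 for Cox6a1 and 0.207 for Cox7a1. On library totals r was -0.128 for Cox8a and -0.527 for Cox6a1. Ndufa4 kept its sign and was called between tissues, at -0.189 on library totals and -0.107 without mitochondrially encoded genes. The r of Cox6a1 on library totals also passed the threshold. The cause of these shifts was not tested. Genes of few counts, such as Cox6b2 and Atp5pb, and the posterior eye as a whole, where libraries varied more, gave the widest errors.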
